A study of Mus musculus with 16 samples.

Results

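Broad H3K27ac domains that lost their breadth during the first 48 h of adipogenesis were described in 3T3-L1 cells, mouse preadipocytes in culture that turn into adipocytes on hormonal induction. H3K27ac, acetylation of histone H3 at lysine 27, was measured by ChIP-seq, and the authors called enriched regions, here islands, in each library separately. Domains were selected on the measured lengths of their islands. A domain was taken when it was an island of at least 10000 bp in replicate A of empty-vector cells at 0 h, overlapped such an island in replicate B, and overlapped no island of that length in either empty-vector library at 48 h. Of 33704 islands in replicate A at 0 h, 1222 were at least 10000 bp long, 636 of these were broad in replicate B as well, and 256 of the 636 met the whole rule (40.3%). They are called collapsing domains below, and the 304 that stayed broad in both 48 h libraries are called stably broad. The loss of breadth in empty-vector cells is therefore how the domains were selected, and the values of those 4 libraries are given without a test.

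The cells used for H3K27ac carried a retrovirus that was either empty or expressed SETD5, a SET domain protein that the study examined as a repressor of adipogenesis, with a V5 tag from a weak viral promoter. Each was a selected transduced line, harvested before induction (0 h) or 48 h after the start of differentiation with MDI, a mixture of insulin, dexamethasone and isobutylmethylxanthine. H3K27ac had 2 libraries, replicates A and B, in each of these 4 conditions. SETD5-V5 was profiled with a V5 antibody at 0 h and 6 h (2 libraries each), and H3K4me1 at 0 h and 48 h and endogenous SETD5 at 0 h and 6 h with 1 library each. The labels name the SETD5-V5 virus for the H3K4me1 libraries while the paper shows untransduced cells, so their vector is uncertain. The labels name no virus for the endogenous SETD5 libraries. For SETD5-V5 replicate A, both titles name SETD5-V5 while the label for the virus is blank (-), and the titles were followed. The paper calls A and B of H3K27ac and SETD5-V5 biological replicates, and the labels give only the letters. The H3K27ac lists held 31292 to 39949 islands over 103 to 122 Mb. The number of broad islands differed between libraries of the same condition, 1222 in A and 749 in B for empty-vector cells at 0 h, so the covered share of each domain, the percentage of its bases inside an island, is given beside the broad form. Read depth within an island was unknown, and a region missing from a list was below the calling threshold rather than free of the mark.

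Acetylation of H3K27 is laid down by the acetyltransferases CBP and p300 at active promoters and enhancers. Wide runs of it form where many enhancers lie close together, often near genes that a cell type expresses strongly, and such clusters are commonly rebuilt when a cell changes state. In preadipocytes, the glucocorticoid and cAMP signals in MDI remodel enhancers before the adipocyte genes are switched on. The cell identity was checked at start sites: all 9 preadipocyte or fibroblast markers, including Pdgfra, Dlk1 and Col3a1, lay in an island in both empty-vector 0 h libraries. Of 5 adipocyte markers only Lipe did so at 0 h, and all 5, including Adipoq, Fabp4 and Plin1, did at 48 h. None of 3 endothelial, 3 epithelial and 3 muscle markers lay in an island, and of 4 leukocyte markers only Lyz2 did.

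Promoter sequences are shown for 4 domains with a start site inside. Prokr1 was among the 10 longest and Efemp1 among the 10 with the least cover at 48 h. Ebf3 and Fam198a were broad in both SETD5-V5 48 h libraries. Other named domains with a start site inside, such as those of Wisp1 and Sorbs2, are not shown. The Prokr1 and Efemp1 start sites had no H3K27ac island in either empty-vector library at 48 h, whereas the Ebf3 and Fam198a start sites stayed inside one in all 8 H3K27ac libraries. Each run holds 250 bases before to 50 after the RefSeq start (sequence table of build GRCm38.p6), 5′ to 3′, and was matched base for base to mm9 at chr6:87540688-87540987 (Prokr1, minus strand), chr7:144506079-144506378 (Ebf3, minus strand), chr9:121859856-121860155 (Fam198a, listed by RefSeq as Gask1a, plus strand) and chr11:28752955-28753254 (Efemp1, plus strand). Capitals mark matches, on either strand, to the letters AP-1 TGANTCA, TEAD GGAATG, C/EBP TTGCNNAA, RUNX TGTGGT and glucocorticoid receptor AGAACA.
Prokr1: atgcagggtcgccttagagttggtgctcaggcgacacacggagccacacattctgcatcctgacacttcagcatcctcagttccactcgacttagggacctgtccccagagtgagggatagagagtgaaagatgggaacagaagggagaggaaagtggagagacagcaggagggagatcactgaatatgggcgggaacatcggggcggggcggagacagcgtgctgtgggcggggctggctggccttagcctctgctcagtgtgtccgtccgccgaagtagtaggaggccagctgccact
Ebf3: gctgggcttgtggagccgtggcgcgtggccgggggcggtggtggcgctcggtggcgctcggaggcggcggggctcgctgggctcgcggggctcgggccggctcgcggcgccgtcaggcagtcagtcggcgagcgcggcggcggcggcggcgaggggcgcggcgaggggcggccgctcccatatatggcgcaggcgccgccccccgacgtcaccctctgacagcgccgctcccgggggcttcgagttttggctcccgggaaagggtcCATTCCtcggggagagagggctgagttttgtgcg
Fam198a: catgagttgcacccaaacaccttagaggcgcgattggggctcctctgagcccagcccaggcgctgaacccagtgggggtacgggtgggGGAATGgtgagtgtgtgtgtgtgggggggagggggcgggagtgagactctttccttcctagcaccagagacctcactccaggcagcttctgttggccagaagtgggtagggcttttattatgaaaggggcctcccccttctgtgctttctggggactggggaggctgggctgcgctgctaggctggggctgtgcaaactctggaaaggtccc
Efemp1: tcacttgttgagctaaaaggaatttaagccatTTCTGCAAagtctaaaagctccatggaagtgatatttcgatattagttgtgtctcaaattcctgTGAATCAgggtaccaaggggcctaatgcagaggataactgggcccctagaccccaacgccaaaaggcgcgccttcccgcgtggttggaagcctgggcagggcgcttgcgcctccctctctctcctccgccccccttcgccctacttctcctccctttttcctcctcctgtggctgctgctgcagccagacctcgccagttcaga

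Capitals in Efemp1 mark 1 AP-1 and 1 C/EBP match, those in Ebf3 and Fam198a 1 TEAD match each, and Prokr1 had none. Among 32544 promoters of the same length, 7.79% held the AP-1 letters, 14.6% TEAD, 10.8% C/EBP, 16.7% RUNX and 18.9% the glucocorticoid receptor letters. The 4 promoters differed in GC content, with 77.0% in Ebf3, 61.3% in Fam198a, 59.3% in Prokr1 and 54.3% in Efemp1. A match describes these letters and is not a bound site.

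The collapsing domains were 10000 to 45000 bp long, with a median of 13200 bp, and together spanned 3.80 Mb. Stably broad domains had a median of 15400 bp. Longer domains collapsed less often: 54.0% of the domains of 10000 to below 12000 bp met the rule, 42.9% from 12000 bp, 38.4% from 15000 bp, 28.6% from 20000 bp, and 5 of 46 (10.9%) from 30000 bp. Part of this order follows from the fixed length limit, since a short domain needs to lose little to pass below it. Just inside the limit, 33 members kept an island of 9000 to 9800 bp in at least 1 empty-vector 48 h library, and just outside it, 26 other domains had a longest 48 h island of 10000 to below 11000 bp. At the other end, 99 members had no 48 h island of 5000 bp or longer in either library.

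Most collapsing domains were thinned and broken up at 48 h and few were emptied. On average 50% of a domain was still covered in replicate A and 47.8% in replicate B of empty-vector cells at 48 h, against 92.5% in replicate B at 0 h. The median longest island was 5100 bp and 4600 bp. In 153 and 164 domains the remains consisted of at least 2 islands, and 7 of the 256 had no island in either library. Cover was kept toward the middle of the domain, where 58.5% and 56.0% of the 200 bp windows lay in an island between 40 and 50% of the length, against 26.6% and 23.0% in the first 10% of it. Replicate B at 0 h, which did not set the edges, was also lower there (73.2% against 98.6%).

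**Figure D1:**
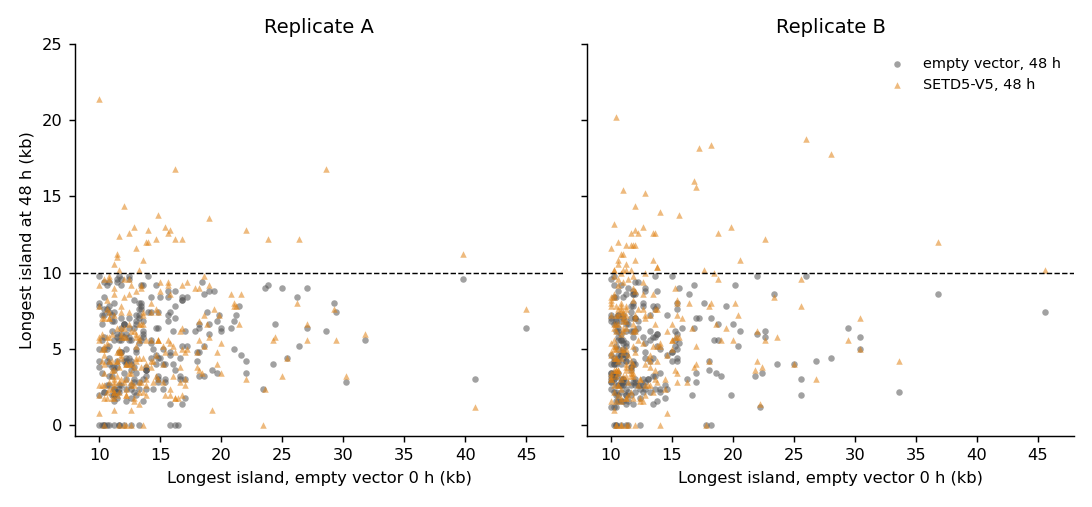
Longest H3K27ac island over each of the 256 collapsing domains at 48 h (vertical, kb) against the longest island in empty-vector cells at 0 h (horizontal, kb), for replicates A and B; grey circles are empty-vector cells and orange triangles SETD5-V5 cells at 48 h, and the dashed line is the 10 kb limit of a broad island. All grey circles lie below the line because of the rule; 29 triangles in replicate A and 49 in replicate B lie on or above it.

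Most of these domains held no start site of a protein-coding gene. A start site lay in 55 of the 256 (21.5%), against 125 of 304 stably broad domains (41.1%), and those 55 held 64 genes (0.286% of 22372 protein-coding genes). Stably broad domains were longer, 6.11 Mb in all against 3.80 Mb, and the shares were not adjusted for length. Of the other 201 domains, 83 overlapped a gene body and 118 were intergenic, and the median distance to a start site was 60402 bp. Over all bases, 3.19% were exonic, 41.6% intronic and 55.2% intergenic. Within 500 bp of a start site, 74.2% and 72.5% of the windows kept H3K27ac in empty-vector cells at 48 h, against 46.8% and 44.4% farther than 10000 bp from one. Domains with a start site kept a mean of 57.5% and 55.9% of their length covered, and those without one 48% and 45.6%.

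**Figure D2:**
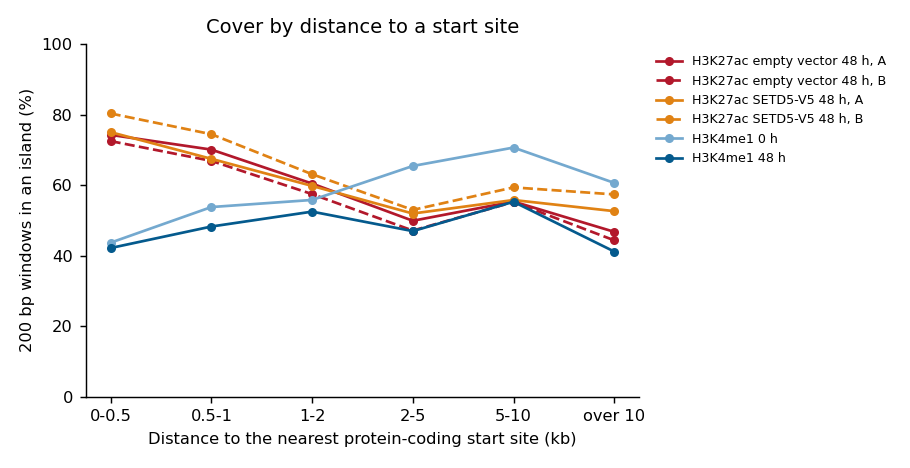
Percentage of 200 bp windows of the collapsing domains inside an island (vertical) by distance to the nearest protein-coding start site (horizontal, kb), for H3K27ac at 48 h with the empty vector or SETD5-V5 (replicates A and B) and for H3K4me1 at 0 h and 48 h (1 library each). H3K27ac cover at 48 h was highest within 500 bp of a start site in all 4 libraries.

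In SETD5-V5 cells, whose libraries played no part in the choice, the same domains also lost H3K27ac between 0 h and 48 h. The mean covered share was 82.7% and 86.9% in the 0 h libraries and 54.6% and 59.0% in the 48 h libraries, so both 48 h values lay below both 0 h values. The change was -28.1 percentage points in replicate A and -27.9 in replicate B (mean -28.0, exact two-sided permutation test over libraries, p = 0.333, the smallest that 2 against 2 libraries allow). A broad island lay over 49.6% and 65.2% of the domains at 0 h and over 11.3% and 19.1% at 48 h, a change of -42.2 percentage points (exact permutation p = 0.333). With domains chosen and measured in replicate A alone (without replicate B) this change was -22.0 points, and in replicate B alone -36.4. Stably broad domains changed by 2.39 percentage points in covered share (89.0% ± 2.09 to 91.4% ± 1.39, SD, n = 2, exact permutation p = 0.667). By domain, 217 of the 256 were lower at 48 h in both letters in SETD5-V5 cells and 8 were higher in both, against 68 and 122 of the 304 stably broad domains.

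**Figure D3:**
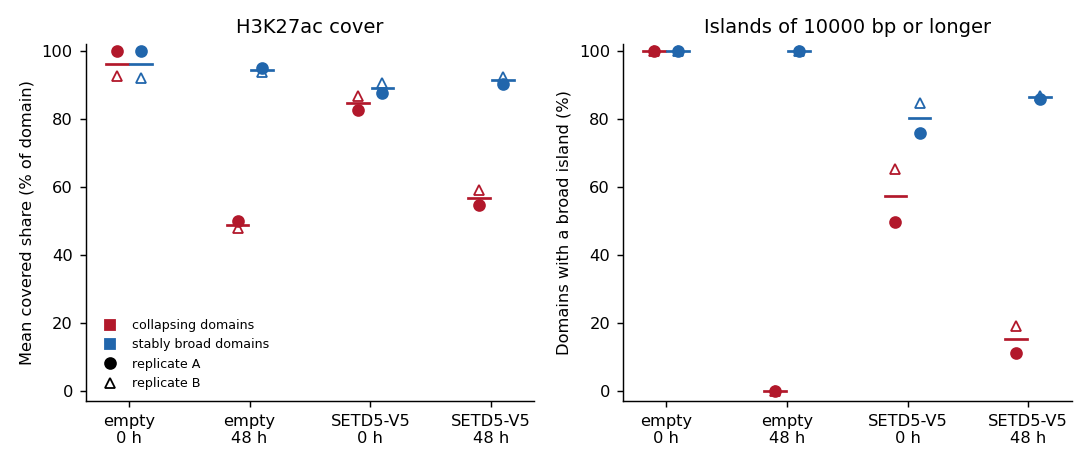
Mean covered share (left, % of the domain) and percentage of domains with an island of 10000 bp or longer (right) in the 8 H3K27ac libraries, for the 256 collapsing (red) and 304 stably broad (blue) domains; filled circles are replicate A, open triangles replicate B and bars their mean. Empty-vector values at both times were fixed by the rule for the right panel; in SETD5-V5 cells the collapsing domains fell from 82.7% and 86.9% cover to 54.6% and 59.0%.

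The broad form was rarely kept in SETD5-V5 cells at 48 h. At 0 h, 105 of the 256 domains were broad in both SETD5-V5 libraries, against 56.6% of all 636 reproducibly broad domains. At 48 h, 20 were broad in both (7.81%, against 45% of the 636), 38 in 1 library, and 198 in neither (77.3%, against 39.3%). Of the 105, 67 were broad in neither 48 h library and 13 in both. Compared with stably broad domains in the same libraries, the percentage broad differed by -74.5 points in replicate A and -67.7 in replicate B (mean -71.1 ± 4.83, SD, n = 2, exact two-sided sign-flip test, p = 0.5, the smallest that 2 libraries allow). The converse choice gave similar shares. Of 534 domains broad in both SETD5-V5 0 h libraries, 157 (29.4%) were broad in neither SETD5-V5 48 h library, and of these 18 (11.5%) were broad in both empty-vector 48 h libraries and 120 (76.4%) in neither. Of those 157, 67 (42.7%) overlapped a collapsing domain of empty-vector cells, which is 26.2% of the 256. Since each choice took low values in its own 48 h libraries, the slightly higher cover of the 256 in SETD5-V5 than in empty-vector cells at 48 h was not tested.

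The covered and uncovered parts of the domains at 48 h were largely shared between the lines. Of 18986 windows of 200 bp, 39.6% lay in an island of both empty-vector 48 h libraries, 16.8% in 1 and 43.6% in neither. Of the windows in neither, 70.9% were also in neither SETD5-V5 48 h library and 14.3% were in both. Of the windows in both, 88.4% were in both SETD5-V5 libraries and 4.60% in neither. At 0 h, H3K27ac islands of SETD5-V5 cells already held fewer of the windows in neither (69.2% and 75.8%) than of those in both (96.2% and 97.3%). Absence in both lines at 48 h was therefore not always a loss in both. Over all windows of the domains, 37.5% were in neither SETD5-V5 48 h library and 49.5% in both.

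**Figure D4:**
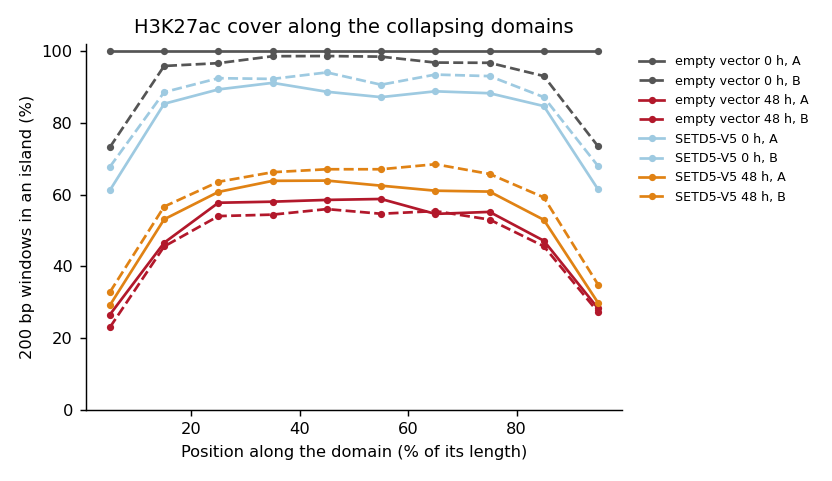
Percentage of 200 bp windows inside an H3K27ac island (vertical) by position along the collapsing domains (horizontal, % of domain length, 10 bins), for each of the 8 libraries; solid lines are replicate A and dashed lines replicate B. Replicate A of empty-vector cells at 0 h is 100% because it defines the domains; at 48 h both lines of cells kept more cover at the centre than at the edges.

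The 10 longest domains kept between 5.88% and 59.9% of their cover in single empty-vector libraries at 48 h. The longest, chr18:52770801-52815800, held the start sites of 1700034E13Rik and Zfp474, a zinc finger gene, and its longest island went from 45000 and 45600 bp to 6400 and 7400 bp in empty-vector cells. In SETD5-V5 cells it went from 34000 and 23000 bp to 7600 and 10200 bp. The domain chr6:112251801-112292600, which overlaps the body of Lmcd1, a LIM domain gene, fell to 14.2% and 5.88% cover in empty-vector cells, and in SETD5-V5 cells from 46.1% and 59.8% to 5.88% and 5.39%. A second domain held the Lmcd1 start site (chr6:112212401-112235800) and was at 10.3% and 9.40% in empty-vector cells at 48 h. In SETD5-V5 cells this second domain was only 24.8% and 23.9% covered at 0 h and at 0% in both 48 h libraries. The Wisp1 domain (chr15:66711601-66738600), at a gene for a secreted matrix-associated protein, kept 49.6% and 45.9% in empty-vector cells and 50.4% and 53.3% in SETD5-V5 cells, each with no broad island. Prokr1, a prokineticin receptor, kept 34.9% and 43.2% of its domain (chr6:87512201-87541400), and the part that remained did not include the start site printed above, which lay in an island of 1400 bp in both SETD5-V5 48 h libraries. Other long domains lay in Eefsec, the selenocysteine elongation factor (39.0% and 46.5% kept), over part of Tpra1 (59.9% and 51.0%) and 46000 bp from Tlr1, a Toll-like receptor (45.2% and 38.5%).

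The 10 domains with the least cover at 48 h included 7 with no island in either empty-vector library. In Sorbs2, an adaptor of the actin cytoskeleton (chr8:46771001-46783000), cover in SETD5-V5 cells went from 80.0% and 76.7% at 0 h to 0% in both 48 h libraries. The domain nearest to Grpel1 (chr5:36775601-36788200) did the same from 66.7% and 74.6%. So did the domain 17910 bp from Kcns2 (chr15:34737601-34749200), from 86.2% and 72.4%. Another collapsing domain near Kcns2 (chr15:34717801-34727800) kept 36% and 50% in the SETD5-V5 48 h libraries. Another in Sorbs2 (chr8:46679001-46690200) kept 37.5% and 14.3% in empty-vector cells and 44.6% and 30.4% in SETD5-V5 cells at 48 h. In Efemp1, which encodes the matrix protein fibulin-3 (chr11:28740401-28756200), empty-vector cover was 0% and 12.7% at 48 h, and SETD5-V5 cells went from 84.8% and 91.1% to 21.5% and 40.5%. A domain inside Hdac9, a class IIa deacetylase (chr12:34881001-34892600), was at 0% in both empty-vector libraries and at 39.7% and 58.6% in SETD5-V5 cells. A longer collapsing domain inside Hdac9 (chr12:34849801-34869800) kept 40% and 39% in empty-vector cells and 46% and 44% in SETD5-V5 cells. The domain in Fbln7, another fibulin, kept 0% and 8.64%, that nearest to Rgs21 0% and 10.7%, and that 19997 bp from Cngb3, a cone photoreceptor channel subunit, 0% in both. At Gm10600 (chr4:41755201-41765800) H3K27ac cover was 0% in both empty-vector libraries, while H3K4me1 covered 100% at 0 h and 98.1% at 48 h. That domain is uncertain: of 53 windows tested there, 47 (88.7%) had a 50-base word with a second exact copy on the chromosome, against 0.781% of the windows of the other members on it, so short reads cannot be placed there uniquely.

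Of the 20 domains broad in both SETD5-V5 48 h libraries, several lay in gene bodies, among them those of Trio, a guanine nucleotide exchange factor, Gulp1, an engulfment adaptor, and Man1c1, a Golgi mannosidase. Trio (chr15:27734001-27756000) kept 30% and 26.4% in empty-vector cells and 85.5% and 88.2% in SETD5-V5 cells at 48 h. A domain 15984 bp from Rock2, a serine/threonine kinase (chr12:16870401-16885800), kept 18.2% in both empty-vector libraries and 84.4% and 76.6% in SETD5-V5 cells, where it had been 75.3% and 79.2% at 0 h. Both early B-cell factor genes in the set, Ebf3 (start site inside, chr7:144490001-144506200) and Ebf1 (in its body), were among them. Ebf3 kept 67.9% and 51.9% in empty-vector and 86.4% and 92.6% in SETD5-V5 cells, and Ebf1 90.0% and 80.0% against 94.3% and 82.9%. Fam198a, a Golgi protein gene, was fully covered in both SETD5-V5 48 h libraries and 79.0% and 76.5% covered in empty-vector cells. These domains were picked for this contrast, so the values describe them only.

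The reverse pattern, broad in both SETD5-V5 0 h libraries and in neither at 48 h, was seen at 67 domains, against 88 of all 636 and 11 of the 304 stably broad ones. In Mylk, the myosin light chain kinase (chr16:34917601-34943000), SETD5-V5 cells went from 92.9% and 89.0% to 31.5% in both libraries, beside 33.9% and 29.9% in empty-vector cells at 48 h. At Gpihbp1 and Zfp41 (chr15:75425001-75448600), the former encoding the anchor of lipoprotein lipase, they went from 99.2% and 82.2% to 23.7% and 36.4%, and empty-vector cells kept 51.7% and 52.5%. In the body of Fbxl13, an F-box gene (chr5:20991001-21015400), SETD5-V5 cells went from 77.0% and 77.9% to 60.7% and 65.6%. Eefsec, Tpra1, Wisp1 and the domain near Tlr1 belonged to this class too.

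Genes of 11 lists for the fibroblast and fat lineages were looked up by start site, beside 0.286% of all protein-coding genes with one in a collapsing domain. Of 22 preadipocyte genes Runx1t1 (4.55%), a transcriptional co-repressor, had one. Its domain (chr4:13709801-13730600) kept 43.3% and 37.5% in empty-vector cells, and went from 86.5% and 80.8% to 63.5% and 72.1% in SETD5-V5 cells. Of 39 extracellular matrix genes, Col1a1 and Thbs1 did (5.13%). Col1a1, a fibrillar collagen chain, lost breadth in empty-vector cells while its 26200 bp domain stayed 87.0% and 89.3% covered, in islands of at most 8400 and 9800 bp. In SETD5-V5 cells at 48 h its longest island was 8000 bp in replicate A and 18800 bp in replicate B. Thbs1, thrombospondin, kept 64.4% and 47.5% in empty-vector cells, and its longest SETD5-V5 48 h islands were 4400 and 5200 bp. From the list of SRF and the actin cytoskeleton, Tpm1, tropomyosin, kept 38.3% and 41.7% in empty-vector cells. In SETD5-V5 cells at 48 h the Tpm1 domain was 83.3% and 93.3% covered, with longest islands of 8400 bp in replicate A and 14000 bp in replicate B. Further genes were Fzd2, a Wnt receptor, Nrg1, a ligand of the EGF family, and Axl, a receptor tyrosine kinase. In empty-vector cells Fzd2 kept 68.5% and 63.0%, Nrg1 60.5% and 65.1%, and Axl 80% and 95%. They came from lists of 21 Wnt genes, 21 growth factors and receptors and 15 annotated YAP and TEAD genes. No start site of 26 annotated mesenchymal transcription factors, 11 AP-1 subunits, 24 TGF-beta and BMP genes, 14 cytokines or 29 annotated adipogenic genes lay in a collapsing domain, where lists of this size would hold fewer than 1 at the share of all genes, and stably broad domains held Prrx1, Snai1, Zeb2 and Nfib of the first, Cxcl5 and Csf1 of the cytokines and Cebpb of the last. Of the lists with a gene in a collapsing domain, stably broad domains held 6 of the 39 extracellular matrix genes, 2 YAP and TEAD genes, and 1 gene each of the preadipocyte, actin, Wnt and growth factor lists. Of all 22372 protein-coding genes, 164 (0.733%) had a start site in a stably broad domain, against 64 (0.286%) in a collapsing one.

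A stretch of chromosome 10 without protein-coding genes stood out by number, and was singled out after its values were seen. Between 5930403N24Rik and Lama4 (chr10:36861486-38685320, 1823.8 kb) lay 20 of the 256 domains (7.81%), of 10000 to 39800 bp, 3 of them among the 10 longest, and 21 of the 636 reproducibly broad domains. No stably broad domain lay in it, and the annotation lists 5 non-coding genes there, among them the lincRNA Gm16988. Islands covered 43.3% and 39.8% of the stretch in empty-vector cells at 0 h and 13.3% and 11.9% at 48 h, and in SETD5-V5 cells 36.7% and 39.5% at 0 h and 19.6% and 22.4% at 48 h. Both SETD5-V5 48 h libraries lay below both SETD5-V5 0 h libraries at 18 of the 20 domains, against 203 of all 256. They lay above both empty-vector 48 h libraries at 19 of the 20, against 120 of the 256, but those empty-vector values were chosen to be low and the comparison was not tested. H3K4me1 covered a mean of only 16.8% of these domains at 0 h and 4.85% at 48 h, against 64.8% and 46.4% of the other 236. SETD5-V5 covered 9.40% and 5.23% at 0 h and 28.2% and 23.9% at 6 h, against 47.1% and 20.7% and then 63.9% and 51.8% of the others.

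**Figure D5:**
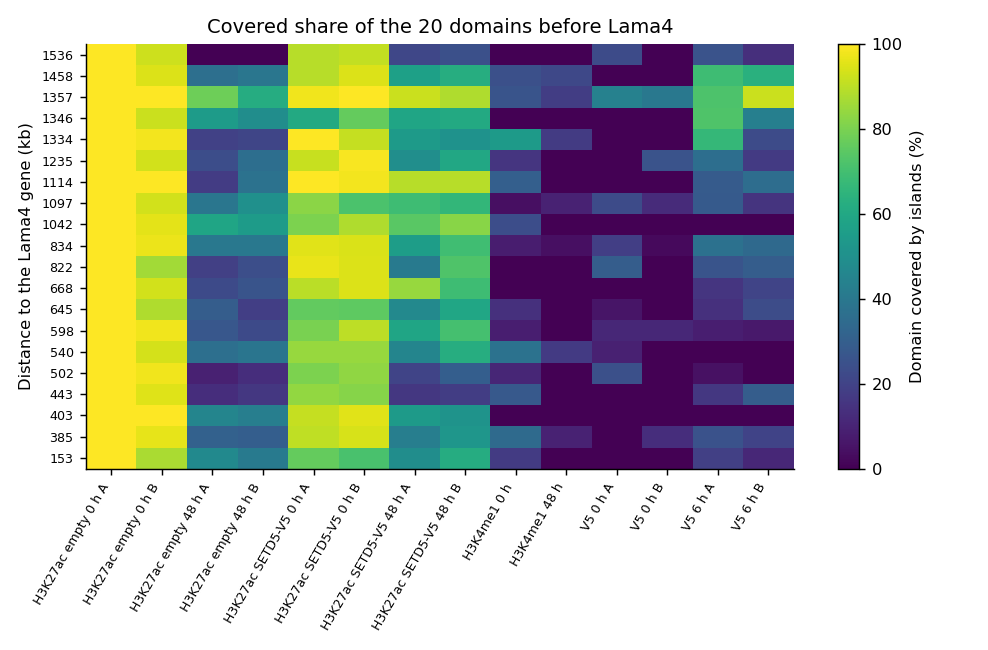
Covered share (colour, %) of the 20 collapsing domains before Lama4 (each a horizontal band, labelled with its distance to the gene in kb) in 14 libraries: H3K27ac with either vector, H3K4me1 and V5. In empty-vector cells the H3K27ac columns go from bright at 0 h to dark at 48 h (means 32.5% and 33.2%), the SETD5-V5 48 h columns are intermediate (54.1% and 60%), and H3K4me1 has a highest value of 54.4%.

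H3K4me1, which marks primed and active enhancers, also receded over the collapsing domains. It covered a mean of 61.1% at 0 h and 43.1% at 48 h, and its share was lower at 48 h in 212 domains and higher in 33, whereas over stably broad domains it was 70.4% and 69.9%, lower in 127 and higher in 131. With 1 library at each time this difference has no replicate check. An H3K4me1 island lay at both times over 220 of the 256, against 582 of all 636 and 291 of the 304 stably broad domains. In windows that kept H3K27ac in both empty-vector libraries H3K4me1 cover was 76.2% at 0 h and 63.5% at 48 h, and in windows that lost it 45.5% and 24.4%.

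SETD5-V5 islands lay over most collapsing domains at 6 h, as over most broad domains. Its islands covered a mean of 44.2% and 19.5% at 0 h and 61.1% and 49.7% at 6 h (changes of 16.9 points in replicate A and 30.1 in replicate B, mean 23.5, exact two-sided permutation p = 0.333, the smallest possible), and 214 domains had an island in both 6 h libraries and 19 in neither, against 578 and 24 of all 636 reproducibly broad domains and 292 and 4 of the 304 stably broad ones. Stably broad domains rose by a like 23.4 points, from 57.5% ± 19.5 to 81.0% ± 6.27 (SD, n = 2), and V5 islands over the whole genome rose in number from 16054 and 6666 to 35573 and 27220, so the change is not particular to the collapsing domains. The 214 domains with SETD5-V5 in both 6 h libraries kept 52.3% and 49.8% H3K27ac cover in empty-vector cells at 48 h, and the 19 with none kept 24.9% and 26.7%. Those 19 already had less H3K27ac cover in SETD5-V5 cells at 0 h, 63.69% and 73.98%, against 84.71% and 88.22% for the 214. Whether SETD5-V5 was tied to the cover kept at 48 h was not tested. Endogenous SETD5 islands were sparse, with 18 domains overlapped at 0 h and 22 at 6 h, against 72 and 133 of the 304 stably broad domains.

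In base composition the domains were close to their stably broad counterparts, with a GC content of 44.5% against 46.3%. Per kilobase they held 0.362 matches to the AP-1 letters against 0.331, 0.683 against 0.617 for TEAD and 0.499 against 0.469 for C/EBP. RUNX letters were at 0.825 against 0.841 per kilobase, the glucocorticoid receptor letters at 1.02 against 0.964, and the frame of a CArG box, CC and GG around any 6 bases and present in 73.5% of all promoters, at 3.26 against 3.92. Within the collapsing domains, windows kept in both empty-vector 48 h libraries held 0.399 AP-1 matches per kilobase and windows in neither 0.334, with GC contents of 45.8% and 43.3%. The ratio of kept to lost windows was 1.20 for AP-1, 1.11 for C/EBP, 1.23 for the CArG frame, 0.991 for TEAD, 0.958 for RUNX and 0.939 for the glucocorticoid receptor letters. These densities were not tested, since regions are not replicates.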

How the data were processed

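ChIP-seq island lists of 16 libraries were used. Per the study's methods, the authors aligned the first 36 bases of reads (ELAND or Bowtie2, mm9) and called islands in each library by SICER or SICER2. Where the study gives island counts for both callers, the lists used here hold the SICER2 counts. The windows were 200 bp wide, the allowed gap was 400 bp (600 bp in SETD5 libraries) and the E-value limit was 100. The deposited lists give position and the authors' caller score for each island. The score was used only to rank islands within a list. Only lists were analysed, with no read counts or input.

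Positions were taken as deposited, overlap was at least 1 bp, and genes came from GENCODE M1 on mm9, the build of the files. The domains, gene lists and tests were chosen with earlier results of these data known. Domains named were the 10 longest, the 10 with least 48 h cover, the 10 longest broad in both SETD5-V5 48 h libraries, the 10 longest broad in both SETD5-V5 0 h and neither 48 h library, and those holding a listed gene. Domains with a start site were named by that gene, others by the nearest gene or the gene they overlap. Other names were chosen after values were seen, and 1 listed gene is not reported here. Tests were exact permutations over libraries. Python 3.11.15, numpy 2.4.6 and bedtools 2.31.1 were used. On 5000 simulated islands the scripts recovered 1029 of 1029 planted domains, and overlap counts equalled those of bedtools. Alternatives were other length limits, overlap of at least 50%, joined islands, equal list sizes, each replicate alone, a replicate block and other gene or motif assignments.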

Additional observations from a re-analysis of the deposited data

Results flagged for a closer look

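The Axl domain (chr7:26564801-26576800) moved opposite ways in the lines. Its covered share in empty-vector cells was 100% and 98.3% at 0 h and 80% and 95% at 48 h, lower in both letters. In SETD5-V5 cells it was 71.7% and 98.3% at 0 h and 100% in both libraries at 48 h. The mean change there of 15 percentage points came mostly from replicate A, since replicate B was already at 98.3% at 0 h. The difference between the lines was not tested, and the fall in empty-vector cells is part of how the domain was chosen.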

How the results depend on the processing

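Direction was the same in all alternatives run for the 5 changes below. The number of domains depended on the limit, with 441 at 8000 bp and 137 at 12000 bp, and ranged from 363 to 685 with a single letter. With the replicate block, where each letter chose its own domains, the mean was 524; the pairing rests on the letters alone, and the blocked change in broad form was -29.2 percentage points (exact p = 0.5). With a single letter, the change in broad form in SETD5-V5 cells was -36.4 without replicate A and -22.0 without replicate B, where the domains rest on 1 library per time. Single letters gave -25.0 to -24.1 for the covered share, -61.2 to -59.1 for the difference from stably broad domains, 17.2 to 31.6 for SETD5-V5 and -16.7 to -13.7 for H3K4me1. At 12000 bp the exact permutation test of SETD5-V5 gave p = 0.667. Chosen after seeing the data, equal numbers of broad islands per list (676) left 210 domains and -45.0 in broad form, and leaving out the chromosome 10 stretch left 236 and -41.7. Within 5000 bp of a domain lay start sites of 81 genes in place of 64. With 2 libraries per condition no test could pass 0.05, and depth within islands was unknown.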
